A study of Danio rerio with 9 samples.

Results

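The kinase mTOR, the subunits of its complexes and the eIF4E-binding proteins that it phosphorylates directly were followed at the message level in adult zebrafish skeletal muscle. The set was taken by gene name and held 10 genes of the 32520 listed: *mtor*, *rptor*, *rictora*, *rictorb*, *mlst8*, *deptor*, *akt1s1*, *eif4ebp1*, *eif4ebp2* and *eif4ebp3l*. All 10 were present in each library, and all were among the 14849 genes that had enough reads to be tested.

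mTOR is a serine/threonine kinase that works in separate multiprotein assemblies. In mTOR complex 1 (mTORC1) the scaffold raptor, encoded by *rptor*, brings substrates to the kinase, and the complex raises protein synthesis when amino acids and growth factors are plentiful. In mTOR complex 2 (mTORC2) the scaffold is rictor, for which zebrafish have the paralogs *rictora* and *rictorb*, and the complex phosphorylates Akt and SGK kinases. The WD40 protein mLST8 belongs to both assemblies, DEPTOR binds mTOR and inhibits it, and PRAS40, the product of *akt1s1*, inhibits mTORC1 through raptor. The 4E-binding proteins (4E-BPs) hold the cap-binding factor eIF4E until mTORC1 phosphorylates them. In skeletal muscle the pathway is best known for coupling nutrition, growth factors and mechanical load to fibre size. Most of these steps act on proteins, so the message levels given here do not measure the activity of either complex.

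Muscle from male zebrafish was compared in 3 groups of 3 libraries, each library made from 2 muscle samples pooled in 1 tube. The fish were 12 months old when selected, and per the study's methods muscle was taken after the 8 weeks of training or housing. The WT group was unexercised wild type of the AB strain, and the *bves* KO group was an unexercised knockout of *bves*, made with CRISPR/Cas9 and carrying a frameshift. The *bves* KO-EX group was labelled as the knockout after 8 weeks of swimming in sessions of 1.5 h, with 3 days on and 1 day of rest, first at 10 cm/s and later at 16 cm/s. There was no exercised wild type, so swimming was compared only among fish labelled as knockouts, and the labels do not say which of the study's knockout lines a library came from. Per the study's methods the WT fish came from a resource center and the knockouts were made in the laboratory. Whether they were siblings is not stated, so a difference of genotype and a difference of stock cannot be told apart. The tissue was bulk muscle, in which fewer cells of a type and less message per cell cannot be told apart.

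The libraries held between 17422188 and 18860779 estimated counts. Their scaling factors for composition (TMM, the trimmed mean of M values) were lowest in WT replicate 2, at 0.763, and highest in *bves* KO-EX replicate 2, at 1.17, and mitochondrial messages took from 11.8% of the counts to 23.4%, the highest in *bves* KO-EX replicate 1. Fast muscle markers summed to between 126667 and 184959 TPM (deposited transcript abundance, scaled for length and depth) in every library. Of these 12 markers, 11 had a mean over 1 CPM (counts per library size as rescaled by TMM). The targeted gene *bves* stood at 39.5, 57.2 and 43.8 CPM in WT and at 7.94, 17.5 and 6.70 CPM in *bves* KO. The libraries labelled *bves* KO-EX read 47.4, 11.4 and 49.6 CPM of *bves*, so that replicates 1 and 3 lay in the WT range against their label and only replicate 2 lay in the knockout range. A frameshift need not lower the message, and what the levels say about these fish was not tested. The libraries labelled *bves* KO-EX are therefore used as labelled. For the set, most calls, log2 fold changes and ratios that rest on them are also given with replicate 2 as the only exercised library. That is a single library, whose spread is taken from the other groups. For other genes of the pathway the calls are also given in that way, and effect sizes only in part.

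Per length of transcript the set fell into an abundant and a scarce part. In WT the TPM means were 85.2 for *eif4ebp3l*, 59.3 for *akt1s1*, 37.3 for *eif4ebp2* and 27.7 for *eif4ebp1*. The complex subunits and DEPTOR were far lower, with WT means of 3.26 TPM for *mlst8*, 1.73 for *mtor*, 1.58 for *deptor*, 1.29 for *rptor*, 0.687 for *rictora* and 0.303 for *rictorb*. In this WT order the library ranges of neighbours were apart between *akt1s1* and *eif4ebp2*, between *eif4ebp1* and *mlst8*, and between *mlst8* and *mtor*, while all other neighbours overlapped. In *bves* KO *deptor* moved up to the fifth place at 3.60 ± 0.222 TPM (SD, n = 3), with its range apart from that of *mlst8* just below it. In the libraries labelled *bves* KO-EX *rictorb* stood above *rictora*, at 0.720 ± 0.149 against 0.443 ± 0.0666 TPM, with ranges apart. The means of the other groups had the reverse order, but there the ranges of the paralogs overlapped. In *bves* KO replicate 2 *rictorb* also stood above *rictora*, at 0.52 against 0.45 TPM. The transcript length that counts and TPM together imply varied between libraries by a factor of 2.09 for *rictorb* and 1.44 for *deptor*, which limits their TPM.

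**Figure D1:**
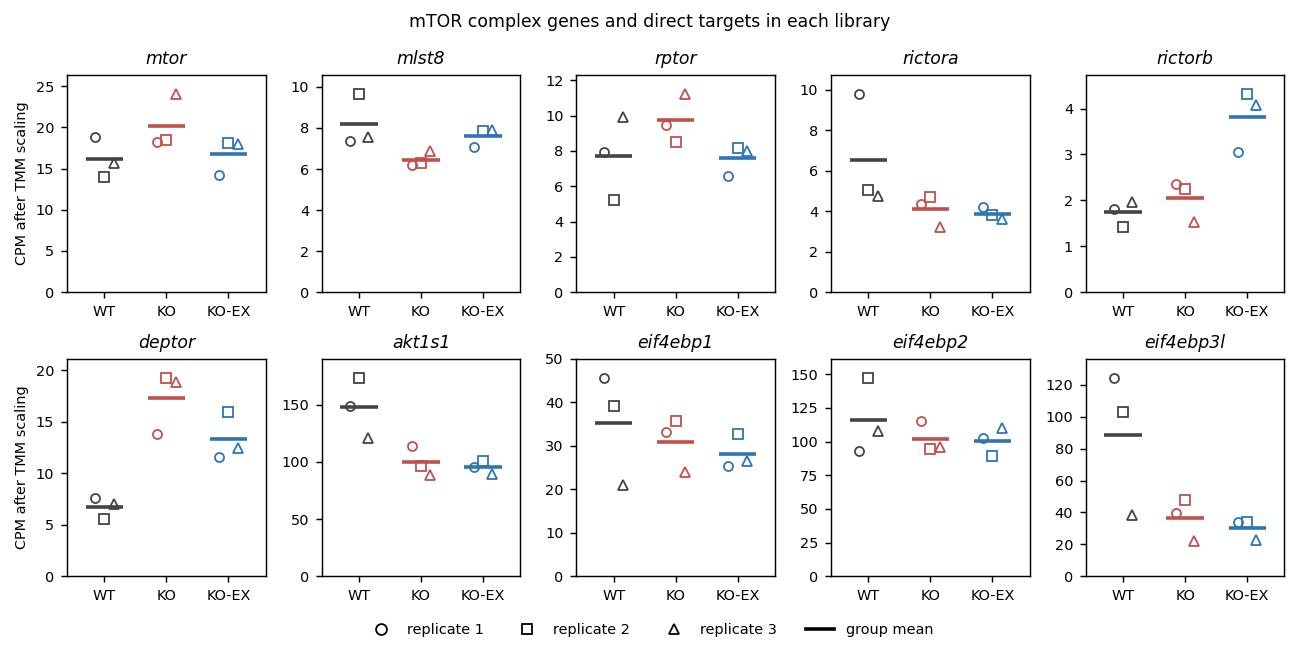
CPM after TMM scaling (vertical axes, linear from 0, a different range in each panel) for the 10 genes, with a symbol for each replicate and a bar for the group mean. The 3 *bves* KO values of *deptor*, from 13.8 to 19.2, lie above the WT values, from 5.57 to 7.62, and the *rictorb* values of *bves* KO-EX, from 3.06 to 4.31, lie above all others.

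The first question was how the set differed between *bves* KO and WT in unexercised muscle. Of the 10 genes, 1 was higher and 0 were lower in *bves* KO than in WT at an adjusted p under 0.05 (edgeR quasi-likelihood test, Benjamini-Hochberg over all genes tested), where 0.754% of all genes were higher and 0.357% were lower. The higher gene was the inhibitor *deptor*, by 2.56-fold. The *bves* message itself differed by -2.13 on the log2 scale and did not pass (edgeR adjusted p = 0.104). It passed in 4 of 19 alternative fits. The median log2 fold change of the 10 was -0.18, beside -0.03 for all genes tested. At an unadjusted p under 0.05 there were 4 of the 10, beside 16.9% of all genes. The groups did not overlap in CPM for 1 higher and 3 lower genes of the 10, beside 11.2% and 10.2% of all genes.

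The kinase and the subunit shared by both complexes did not pass the test. For *mtor* the WT libraries read 18.8, 14.0 and 15.7 CPM and the *bves* KO libraries 18.2, 18.4 and 24.0 CPM. These ranges overlapped, and the log2 fold change of 0.32 (95% interval -0.11 to 0.74) did not pass, with an adjusted p of 0.425 in edgeR. For *mlst8* the values were 7.38, 9.64 and 7.54 CPM in WT and 6.22, 6.29 and 6.86 CPM in *bves* KO. All 3 knockout libraries were below WT, but the log2 difference of -0.34 (-0.75 to 0.07) did not pass either (edgeR adjusted p = 0.368). Reads of overlapping genes may enter both values, since *bricd5* and *meiob* overlap *mlst8*, and *angptl7* overlaps *mtor*, in the RefSeq annotation of GRCz12tu. The same annotation has long noncoding RNA genes that overlap *mtor*, *rptor*, *rictorb*, *deptor* and *eif4ebp3l*. Whether strand was used in the counting is not given in the sources used here.

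Nor did the scaffolds that define each complex. Raptor's gene *rptor* stood at 7.96, 5.20 and 9.92 CPM in WT and 9.49, 8.48 and 11.2 CPM in *bves* KO, with overlapping ranges and a log2 fold change of 0.33 (-0.20 to 0.86). The mTORC2 scaffold *rictora* read 9.78, 5.05 and 4.76 CPM in WT against 4.34, 4.73 and 3.21 CPM in *bves* KO. Its groups did not overlap, because the highest knockout library was just under the lowest WT library, and WT replicate 1 carried most of the difference of -0.68 (-1.33 to -0.03; edgeR adjusted p = 0.274). Its paralog *rictorb* was the scarcest of the set, at 1.82, 1.43 and 1.97 CPM in WT and 2.36, 2.25 and 1.53 CPM in *bves* KO, from only 19 to 44 counts a library, and its log2 fold change was 0.22 (-0.40 to 0.84).

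Of the inhibitors, *deptor* passed the test and *akt1s1* did not. The *deptor* message stood at 7.62, 5.57 and 6.99 CPM in WT and at 13.8, 19.2 and 18.8 CPM in *bves* KO. Every knockout library was above every WT library. The log2 fold change was 1.35 ± 0.215 (SE; 95% interval 0.88 to 1.83) with an adjusted p of 0.0166 in edgeR. On the TPM scale the groups were also apart, at 2.31, 0.95 and 1.47 in WT and 3.40, 3.84 and 3.57 in *bves* KO. For *akt1s1* the WT libraries read 149, 173 and 121 CPM and the *bves* KO libraries 114, 96.2 and 88.3 CPM. PRAS40's message was below WT in all 3 knockout libraries, but the log2 fold change of -0.57 (-1.03 to -0.10) had an adjusted p of 0.214 in edgeR and did not pass.

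The *deptor* call was lost in 5 of 19 alternative fits, with total-count scaling, with limma on TPM (adjusted p = 0.168) and without WT replicate 1, WT replicate 2 or *bves* KO replicate 3, while its log2 fold change was 1.22 or more in all of them. All 6 fibroblast markers were detected, and their summed TPM of 187 to 273 in *bves* KO lay above the 95.3 to 115 of WT, as did fast muscle markers at 164109 to 184959 against 126667 to 153076. Satellite cell markers, of which 1 of 4 had a mean over 1 CPM, were narrowly above WT too, at 13.4 to 22.5 against 5.90 to 13.3. The part of these markers in the *deptor* result was not tested.

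None of the 4E-BPs passed the test. The best-studied of them, *eif4ebp1*, read 45.5, 39.2 and 21.0 CPM in WT and 33.1, 35.8 and 24.0 CPM in *bves* KO, and *eif4ebp2* read 92.7, 147 and 108 CPM against 115, 94.9 and 96.2 CPM. Both sets of ranges overlapped, and the log2 fold changes were -0.19 (-0.79 to 0.42) and -0.18 (-0.68 to 0.31). The third, *eif4ebp3l*, is known in zebrafish as a brake on translation in inactive muscle. Its values were 124, 103 and 38.2 CPM in WT and 39.8, 47.6 and 22.2 CPM in *bves* KO. WT replicate 3 sat among the knockout libraries, so the groups overlapped, and the log2 fold change of -1.27 ± 0.417 (-2.20 to -0.35) did not pass (edgeR adjusted p = 0.167). Without that library, singled out after the values were seen, the adjusted p of *eif4ebp3l* was 0.0414 in edgeR, and its log2 fold change was -1.64. The *eif4ebp3l* message passed in 2 of 19 alternative fits and in 1 of the 9 that left out 1 library. Its log2 fold change ran from -1.64 to -0.95, and its adjusted p was up to 0.41 in edgeR, without *bves* KO replicate 3.

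**Figure D2:**
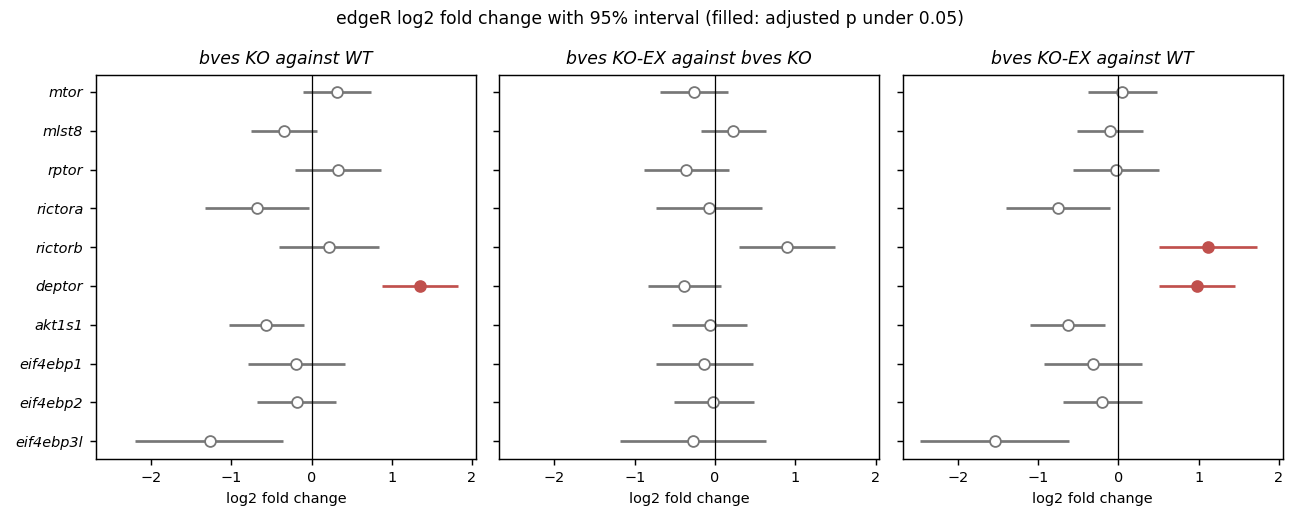
log2 fold change (horizontal axes) of each gene in the 3 comparisons, with 95% intervals derived from the edgeR test statistic. Filled red points have an adjusted p under 0.05. Filled points stand at *deptor* in *bves* KO against WT (1.35), and at *rictorb* (1.12) and *deptor* (0.98) in *bves* KO-EX against WT.

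The second question was how muscle labelled as exercised knockout differed from *bves* KO. Of the 10 genes, 0 were higher and 0 were lower in *bves* KO-EX than in *bves* KO by edgeR, where 0.721% of all genes were higher and 0.916% lower, and DESeq2 also called 0. Of the 10, 1 had an unadjusted p under 0.05, beside 15.3% of all genes. The median log2 fold change was -0.11, beside 0.01 for all genes tested. The *bves* message differed by 1.75 on the log2 scale (edgeR adjusted p = 0.154), and by 0.08 with replicate 2 as the only exercised library. The *bves* KO libraries serve in this comparison and in the one before, so their values enter both.

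The gene with the unadjusted p under 0.05 was *rictorb*. The libraries labelled *bves* KO-EX read 3.06, 4.31 and 4.08 CPM of *rictorb*, all above the 2.36, 2.25 and 1.53 CPM of *bves* KO. The log2 fold change was 0.90 ± 0.272 (SE), with an adjusted p of 0.131 in edgeR, and with replicate 2 as the only exercised library it was 1.06 (edgeR adjusted p = 0.383). For *deptor* the exercised libraries read 11.6, 15.9 and 12.4 CPM, lower on average than *bves* KO but overlapping it, and the log2 difference was -0.38 (-0.84 to 0.08; edgeR adjusted p = 0.439). With replicate 2 alone the *deptor* difference was -0.14, and the set again held 0 genes that passed.

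The kinase and raptor messages were below every *bves* KO library without passing the test. The *mtor* values were 14.2, 18.1 and 18.0 CPM, just under the lowest *bves* KO value of 18.2 CPM, and the log2 difference was -0.26 (-0.69 to 0.16). The *rptor* values were 6.56, 8.16 and 7.99 CPM against a lowest *bves* KO value of 8.48 CPM, with a log2 difference of -0.36 (-0.89 to 0.17). Replicate 2 alone gave -0.17 for *mtor* and -0.27 for *rptor*. For *mlst8*, at 7.06, 7.83 and 7.88 CPM, the libraries were all above *bves* KO, by 0.23 on the log2 scale (-0.17 to 0.64), and by 0.26 with replicate 2 alone. Groups that do not overlap were common among all genes in this comparison, 12.2% higher and 10.8% lower, beside 2 and 2 of the 10.

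Of the other members, 4 differed by less than these. In the libraries labelled *bves* KO-EX *rictora* read 4.22, 3.80 and 3.64 CPM, *akt1s1* 95.7, 101 and 89.1 CPM, *eif4ebp1* 25.3, 32.6 and 26.5 CPM, and *eif4ebp2* 103, 89.1 and 110 CPM. Each of these ranges overlapped that of *bves* KO, with log2 fold changes from -0.14 to -0.02, and with replicate 2 alone from -0.21 for *eif4ebp2* to 0.06 for *eif4ebp1*. The *eif4ebp3l* message read 34.2, 33.9 and 22.7 CPM, within the *bves* KO range, and differed by -0.27 (-1.18 to 0.64), the widest interval of the set in this comparison, and by -0.12 with replicate 2 alone.

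The third comparison set the libraries labelled *bves* KO-EX against unexercised WT, which differ by label in both genotype and swimming. In the *bves* message itself they differed by -0.37 on the log2 scale (edgeR adjusted p = 0.695), and replicate 2 alone by -2.05. Of the 10 genes, 2 were higher and 0 lower (edgeR, adjusted p under 0.05), where 3.06% of all genes were higher and 2.34% lower. The 2 were *rictorb*, an mTORC2 scaffold, and *deptor*. At an unadjusted p under 0.05 there were 5 of the 10, beside 25.1% of all genes, and the median log2 fold change was -0.15, beside 0.01. Groups without overlap in CPM were 2 higher and 3 lower of the 10, beside 15% and 13% of all genes. The WT libraries are those of the first comparison, and the exercised libraries those of the second.

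For *rictorb* the exercised libraries, at 3.06 to 4.31 CPM, were all above WT, at 1.43 to 1.97 CPM. The log2 fold change was 1.12 ± 0.275 (0.51 to 1.73), or 2.17-fold, with an adjusted p of 0.0412 in edgeR. These are low counts, from 19 to 39 a library in WT and from 55 to 92 in *bves* KO-EX. The call was held in 6 of 19 alternative fits and in 2 of the 9 that left out 1 library, those without WT replicate 3 or *bves* KO replicate 3 (the adjusted p was up to 0.182, with *bves* KO-EX replicate 2 as the only exercised library), and the log2 fold change stayed between 1.02 and 1.28.

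The *deptor* message was 1.97-fold higher in *bves* KO-EX than in WT (log2 fold change 0.98 ± 0.214, 0.51 to 1.45; edgeR adjusted p = 0.0291), with all 3 exercised libraries above WT. It passed in 9 of 19 alternative fits and was lost without WT replicate 1, WT replicate 2 or any one of the exercised libraries. With *bves* KO-EX replicate 2 as the only exercised library the set held 0 genes that passed, and the *deptor* fold change was the highest of the alternatives, at 1.22 on the log2 scale. In TPM the exercised libraries stood at 2.04, 3.63 and 2.73 and overlapped the WT range, whose top was 2.31. The transcript length that counts and TPM together imply for *deptor* varied between libraries by a factor of 1.44, and for *rictorb* by 2.09, against at most 1.23 for the other members.

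Among the rest, *akt1s1* and *eif4ebp3l* came nearest to the threshold. PRAS40's message was lower in all 3 exercised libraries than in WT, by -0.63 on the log2 scale (-1.10 to -0.17; edgeR adjusted p = 0.0991), and passed only with DESeq2 (adjusted p = 0.0163). Replicate 2 alone gave -0.57 for *akt1s1*. The *eif4ebp3l* message was lower by -1.54 ± 0.420 (-2.47 to -0.61; edgeR adjusted p = 0.0598), with every exercised library under the lowest WT library, and passed in 3 of 19 alternative fits, while replicate 2 alone gave -1.40. The *rictora* difference was -0.75 (-1.40 to -0.10; edgeR adjusted p = 0.145), or -0.80 with replicate 2 alone. For *mtor*, *rptor* and *mlst8* the log2 differences were 0.05, -0.03 and -0.11, and for *eif4ebp1* and *eif4ebp2* -0.32 and -0.20, all with intervals across 0. With replicate 2 alone these 5 were 0.14, 0.06, -0.08, -0.13 and -0.40.

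Beside these results, fibroblast markers summed to 211 to 356 TPM in the libraries labelled *bves* KO-EX, above the 95.3 to 115 of WT. Adipocyte markers summed to 541 to 668 TPM, above the 291 to 439 of WT and the 359 to 458 of *bves* KO, with *plin1* of that list at 0 everywhere. Erythrocyte markers, at 1424 to 2005 TPM, and nerve and Schwann cell markers, at 161 to 228 TPM, were also above their WT ranges of 856 to 1167 and 128 to 155. Satellite cell markers summed to 2.75 to 4.75 TPM, below the 5.90 to 13.3 of WT and the 13.4 to 22.5 of *bves* KO. Only 1 of the 4 satellite cell markers and 3 of the 5 adipocyte markers had a mean over 1 CPM, which limits both sums. The part of these markers in the results on the set was not tested.

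Ratios within a library are free of its scaling, and 5 were compared on log2 TPM by an exact two-sided permutation test, in 15 tests. With 3 libraries against 3 the smallest possible p is 0.1, which adjusts to 0.214 over the 15, so none could pass. DEPTOR's message relative to that of its target, *deptor* to *mtor*, was -0.04, -0.13 and -0.27 in WT, 0.71, 1.01 and 0.40 in *bves* KO, and 0.48, 0.63 and 0.46 in *bves* KO-EX. In TPM the *mtor* message was thus the more abundant in every WT library, and *deptor* in all 6 libraries labelled *bves* KO or *bves* KO-EX. That order rests on the transcript length used. Counts and TPM imply 3919 to 5631 bases for *deptor*, beside a listed length of 2019. Relative to WT the *bves* KO mean was higher by 0.85 and the *bves* KO-EX mean by 0.67, each at the smallest exact p of 0.1. Replicate 2 of *bves* KO-EX alone was 0.78 above the WT mean. Against *bves* KO the *bves* KO-EX difference was -0.18, with overlap, and -0.08 for replicate 2 alone. Computed from CPM in place of TPM, the differences from WT were 1.04 for *bves* KO and 0.92 for *bves* KO-EX.

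In TPM the rictor paralogs stood in a different order in *bves* KO-EX than in WT, and that order rests on the transcript lengths used. Counts and TPM imply 4082 to 8523 bases for *rictorb*. In CPM, not scaled for length, the *bves* KO-EX means were 3.89 for *rictora* and 3.82 for *rictorb*, with overlapping ranges. The *bves* KO means were 4.10 and 2.04 CPM. The log2 ratio of *rictora* to *rictorb* was 1.18, 1.54 and 0.97 in WT, 0.63, -0.21 and 0.04 in *bves* KO, and -0.61, -0.78 and -0.69 in *bves* KO-EX. The 3 groups did not overlap in any comparison, with differences of -1.08 for *bves* KO against WT, -0.84 for *bves* KO-EX against *bves* KO and -1.92 for *bves* KO-EX against WT (exact permutation p = 0.1 each). Computed from CPM in place of TPM, which leaves out the shifting transcript length of *rictorb*, the same differences were -0.83, -0.97 and -1.80. Replicate 2 of *bves* KO-EX alone lay outside both other ranges, by -0.93 from the *bves* KO mean and by -2.01 from the WT mean.

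Raptor to the summed rictor paralogs, a message-level view of mTORC1 against mTORC2 scaffolds, was -0.16, 0.33 and 1.16 in WT and 1.05, 0.47 and 1.44 in *bves* KO, which overlapped. In *bves* KO-EX it was -0.06, 0.16 and 0.26, below every *bves* KO library, with a difference of -0.86 (exact permutation p = 0.1), or -0.83 for replicate 2 alone. Against WT the difference was -0.32, within overlapping ranges, and its direction turned with CPM in place of TPM (0.07) and without WT replicate 3 (0.04).

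**Figure D3:**
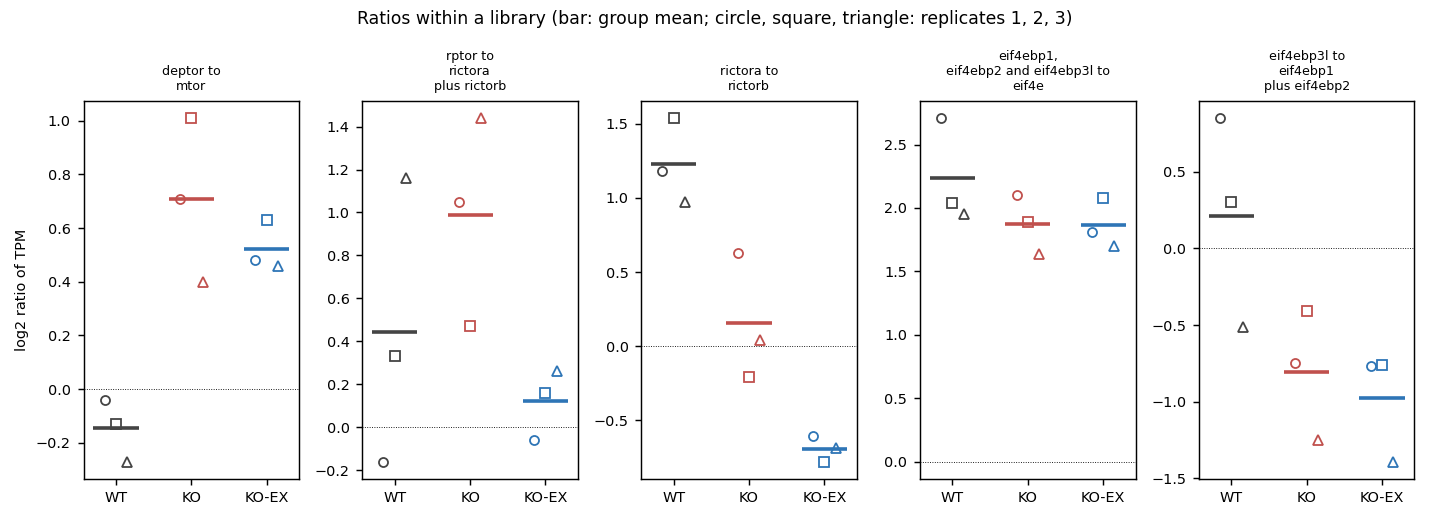
log2 ratios of TPM within each library (vertical axes, a different range in each panel) for 5 ratios, with a symbol for each replicate, a bar for the group mean and a dotted line at equal levels. The *rictora* to *rictorb* values run from 0.97 to 1.54 in WT, from -0.21 to 0.63 in *bves* KO and from -0.78 to -0.61 in *bves* KO-EX.

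The 4E-BPs were also read as a pool, with *eif4ebp3*, which is not in the set of 10 but was on a list of mTORC1 substrates, added after its values were seen. The 4 messages together summed to TPM values of 273, 175 and 174 in WT, 161, 155 and 112 in *bves* KO, and 99.9, 128 and 97.7 in *bves* KO-EX. The libraries of *bves* KO and *bves* KO-EX were all below WT, and the exercised range overlapped that of *bves* KO. In WT *eif4ebp3l* made up 53.1%, 40.6% and 23.0% of the pool. In *bves* KO its share was 26.0%, 29.3% and 20.9%, and in *bves* KO-EX 32.5%, 31.5% and 23.8%, so WT replicate 3 had a share within the range of those groups.

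The share of *eif4ebp3* was 17.4%, 26.6% and 44.2% in WT, 30.4%, 31.9% and 29.6% in *bves* KO, and 12.2%, 15.2% and 13.7% in *bves* KO-EX. Its message stood at 29.1, 48.2 and 52.3 CPM in WT, 33.4, 37.2 and 22.5 CPM in *bves* KO and 9.23, 11.7 and 9.35 CPM in *bves* KO-EX. The exercised libraries, replicate 2 included, were below all 6 others. In edgeR *eif4ebp3* fell by 1.62 on the log2 scale against *bves* KO (SE 0.267, adjusted p = 0.0205) and by 2.09 against WT (SE 0.270, adjusted p = 0.00381). With *bves* KO-EX replicate 2 as the only exercised library the log2 differences were -1.42 against *bves* KO and -1.90 against WT, and neither call held. The call against *bves* KO was also lost with limma on TPM and without *bves* KO replicate 1 or *bves* KO-EX replicate 1 or 3. The call against WT was kept in all 9 fits that left out 1 library.

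Against the cap-binding factor itself (*eif4ea*, *eif4eb* and *eif4e1c* summed), the 3 4E-BPs of the set had log2 ratios of 2.71, 2.04 and 1.95 in WT, 2.10, 1.89 and 1.64 in *bves* KO, and 1.81, 2.08 and 1.70 in *bves* KO-EX. All groups overlapped, with differences of -0.36 for *bves* KO and -0.37 for *bves* KO-EX against WT. Between the last and *bves* KO the difference of -0.01 turned with CPM (0.14), without *bves* KO replicate 1 (0.10) and without *bves* KO-EX replicate 1 (0.01) or 3 (0.07). With *eif4ebp3* in the sum the *bves* KO-EX libraries were all below WT, by -0.68, and the same difference from CPM was -0.36. Replicate 2 alone was -0.45 from the WT mean. The *eif4ebp3* message was added after its low *bves* KO-EX values were seen, so this sum cannot serve as a test of the drop. The log2 ratio of *eif4ebp3l* to *eif4ebp1* plus *eif4ebp2* was lower in *bves* KO-EX than in WT by -1.19 without overlap, and lower in *bves* KO by -1.01 with overlap. Replicate 2 alone was -0.97 from the WT mean.

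**Figure D4:**
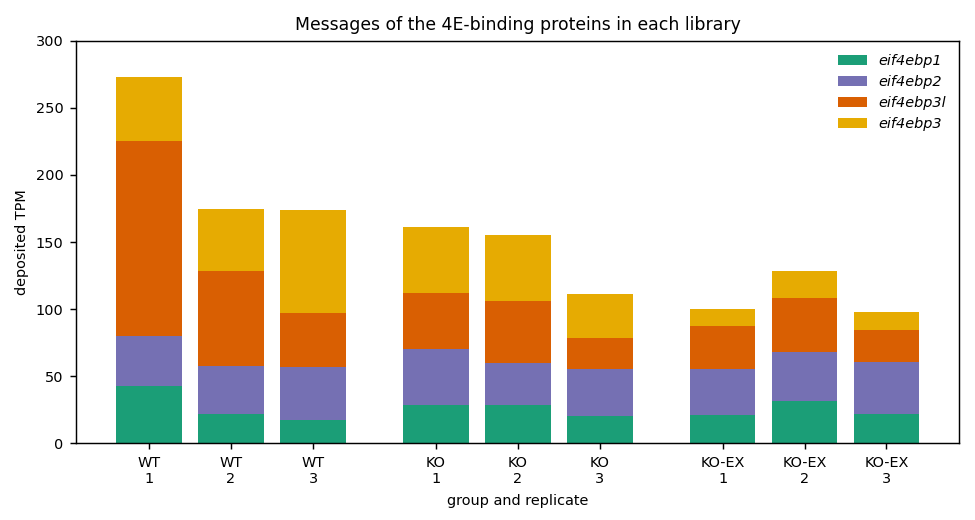
Deposited TPM (vertical axis, from 0) of the 4 messages for 4E-binding proteins, stacked for each library, with group and replicate on the horizontal axis. The pool runs from 174 to 273 TPM in WT, from 112 to 161 in *bves* KO and from 97.7 to 128 in *bves* KO-EX, and the *eif4ebp3* part is smallest in *bves* KO-EX.

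The other genes of the pathway were taken from 12 lists with 134 symbols, of which 106 genes were tested. In *bves* KO against WT, 1 was higher (0.943%) and 0 lower, beside 0.754% and 0.357% of all genes. It was *sgk1*, a kinase that mTORC2 activates, which read 26.0, 29.4 and 28.7 CPM in WT and 71.7, 61.8 and 56.4 CPM in *bves* KO, without overlap (log2 fold change 1.17 ± 0.193, edgeR adjusted p = 0.0206). The call was lost without WT replicate 1 or 2 or without *bves* KO replicate 1 or 3. The 10 tested substrates of mTORC2, the list that holds *sgk1*, had a median of 0.43, and the median over all 106 was -0.11.

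In *bves* KO-EX against *bves* KO, 0 were higher and 2 lower (1.89%), beside 0.721% and 0.916% of all genes, and with replicate 2 as the only exercised library 0 and 0. The 2 were *eif4ebp3*, described with the pool, and *eif4a1a*, an RNA helicase of the cap-binding complex. The *eif4a1a* message read 122, 128 and 103 CPM in *bves* KO and 26.5, 23.0 and 15.8 CPM in the exercised libraries, with a log2 difference of -2.44 ± 0.279 (SE) and an adjusted p of 0.00659 in edgeR (0.116 with *bves* KO-EX replicate 2 as the only exercised library). All 3 exercised libraries were also below the WT values of 86.0, 113 and 61.7 CPM. The eIF4A genes are close paralogs, and how shared reads were split between them limits each of their values.

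In *bves* KO-EX against WT, 4 of the 106 were higher (3.77%) and 6 lower (5.66%), against 3.06% and 2.34% of all genes, and the median was -0.22. The higher genes were the stress-induced mTORC1 inhibitor *sesn1* (log2 fold change 1.40, edgeR adjusted p = 0.0326), the kinase *eef2k*, which slows elongation and is inhibited by S6 kinase (1.20, 0.0464), *pdcd4b*, an inhibitor of eIF4A (1.01, 0.0422), and *sgk1* (0.77, 0.0441). The 8 tested nutrient and stress sensors of mTORC1, the list that holds *sesn1*, had a median of 0.01, with 4 above 0 and 4 below. The 10 tested S6 kinases and S6 kinase targets, the list that holds *eef2k*, *pdcd4b* and *rps6kb1b*, had a median of -0.12, with 3 above 0 and 7 below. Counts of *pdcd4b* were low, from 31 to 59 a library in WT. The lower genes were *eif4ebp3*, *eif4a1a* (3.99-fold lower, adjusted p = 0.00479), *eif4a2* (-1.03, 0.0383), the cap-binding *eif4e1c* (-0.97, 0.0264), the S6 kinase *rps6kb1b* (-0.99, 0.0264) and the poly(A)-binding protein *pabpc1b* (-1.16, 0.0258). The *sesn1* message read 196, 115 and 191 CPM in WT, 232, 249 and 275 CPM in *bves* KO and 425, 288 and 609 CPM in *bves* KO-EX. Over the 19 alternatives the lowest log2 fold changes were 0.76 for *sesn1*, 0.62 for *eef2k* and 0.44 for *sgk1*. Over the 9 fits that left out 1 library they were 1.09, 0.96 and 0.69. For *pdcd4b* the 19 stayed between 0.96 and 1.16. Replicate 2 was the lowest of the exercised libraries for *sesn1*, for *eef2k* (58.4 CPM) and for *sgk1* (38.4 CPM). With that replicate as the only exercised library each of these 10 genes had an adjusted p above 0.05, from 0.0886 for *eif4a1a* to 0.442 for *eef2k* and *sgk1*. With 1 library left out, *eif4ebp3* and *eif4a1a* passed in 9 of 9 fits, and the other 8 genes in 1 to 4 of 9, each of them lost without WT replicate 2 and without *bves* KO-EX replicate 1.

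A list of its own held the terminal oligopyrimidine (TOP) messages other than ribosomal proteins, whose translation depends on mTORC1. In *bves* KO-EX they were below WT in 13 of 13 tested genes, with a median of -0.76 on the log2 scale, and 1 of them passed. Over all genes tested in that comparison the median was 0.01, and 3.06% were called higher and 2.34% lower. With replicate 2 as the only exercised library 12 of the 13 were below WT, with a median of -0.39. In that fit 8553 of 16317 genes were below WT, with a median of -0.04. In *bves* KO against WT 12 of the 13 were below, with 0 passing and a median of -0.35, beside -0.03 for all genes tested. Genes of a list share the same libraries, so these counts of directions are a description. The 16 genes of cap-binding initiation had a median of -0.51 in *bves* KO-EX against WT, with 0 higher and 3 lower, and of -0.55 with 0 passing for replicate 2 alone. The 11 Rag GTPase, Ragulator and folliculin genes, which place mTORC1 on the lysosome, had a median of -0.36 with 0 passing, and -0.54 for replicate 2 alone. The TSC and Rheb list (5 tested, *rheb* itself not among them), GATOR and KICSTOR (10), the TTT chaperone (3) and SREBP targets (10) held 0 genes that passed in any comparison. Of the mTORC2-only subunits beside rictor 1 was tested and did not pass. Counts in different lists share control libraries and are given side by side only.

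**Figure D5:**
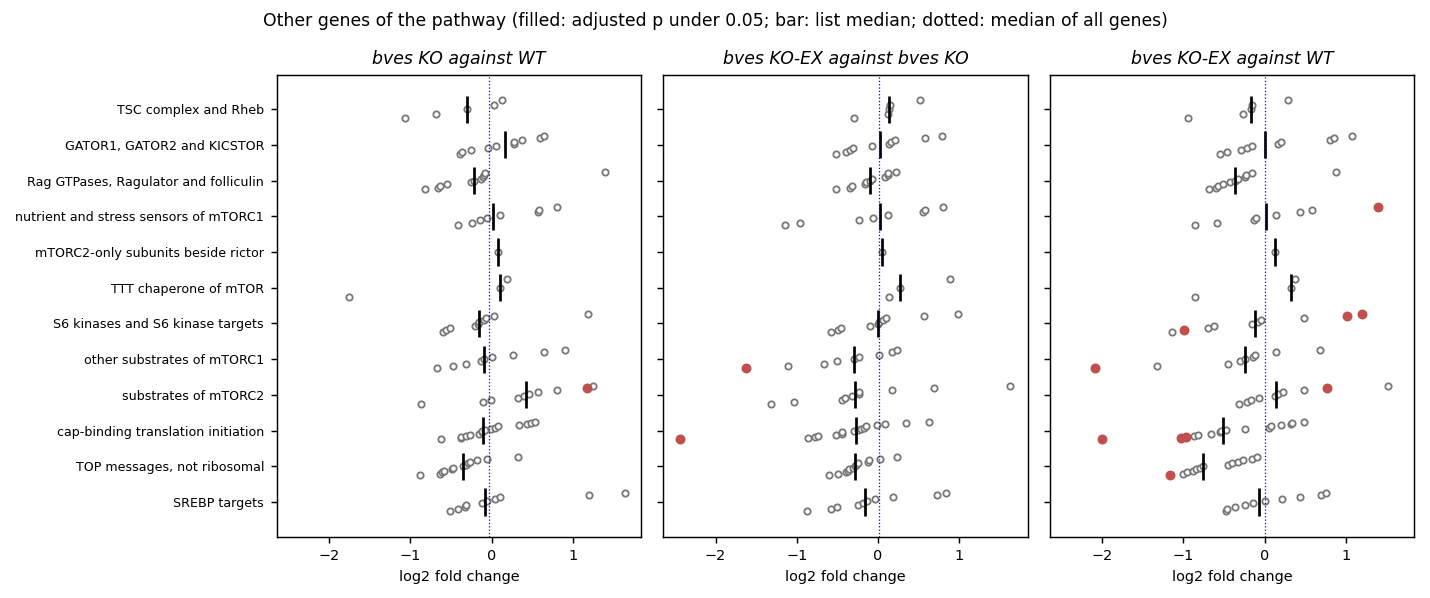
log2 fold change (horizontal axes) of each tested gene of the 12 lists in the 3 comparisons, filled red where the adjusted p was under 0.05, with a bar at each list's median and a dotted line at the median of all genes. In *bves* KO-EX against WT the TOP messages lie to the left of 0 in all 13 genes, and 4 filled points lie to the right and 6 to the left over all lists.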

How the data were processed

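RNA was sequenced from skeletal muscle in 9 libraries (poly(A) selection, stranded Illumina kit). Per the labels, the submitters' processing notes name fastp, HISAT2, StringTie and RSEM, and the genome build and tool versions are not given in the sources used here. The authors deposited estimated counts per Ensembl gene, not normalized, of which 9.01% to 11.8% a library were not whole, and these were rounded. The authors also deposited TPM, normalized for transcript length and depth, with the gene lengths in bases (other values, used only to describe the genes). Columns with the authors' group means, fold changes and p-values were not used. Groups and replicate numbers came from the sample titles.

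Genes with enough counts by filterByExpr were kept (14849), scaled by TMM and fitted over all 9 libraries with the robust quasi-likelihood test of edgeR 4.0.16 in R 4.3.3, with Benjamini-Hochberg adjustment over all of them. A gene passed at an adjusted p under 0.05. The biological coefficient of variation was 0.295. Alternatives used DESeq2 1.42.0 and limma 3.58.1 on log2(TPM + 0.1), other scalings and filters, a replicate block and each library left out. The script was tested on simulated data. Ratios of TPM within a library were compared by exact permutation. Each library pooled 2 muscle samples per the study's methods. Depth covers counting error only, and 3 counts stand for 0.141 to 0.226 CPM a library.

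The members and the lists were chosen with earlier results of these data known. The text names every member, *bves*, up to 4 passing genes a list and the 3 nearest profiles of each passing member. The nearest profiles were taken among genes whose symbol does not start with a capital and holds no colon. Same-numbered libraries were checked for shared deviations, and the numbers were not treated as pairs. Protein, promoter and transcript sequences were not used here.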

Additional observations from a re-analysis of the deposited data

How the results depend on the processing

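Of the 30 gene and comparison pairs 3 were called. Their 57 values under the alternatives kept the call in 29 and lost it in 28, all with the same sign. Of the 513 values of uncalled pairs 6 gained a call, and 30 of the other 507 changed sign. The set held 1 gene that passed in *bves* KO against WT, 2 with DESeq2, 0 with total-count scaling, 0 with limma on TPM, and 0 to 2 with 1 library left out. In *bves* KO-EX against *bves* KO it held 0 under every alternative run. In *bves* KO-EX against WT it held 2, with DESeq2 4, without a filter 1, with the 6 libraries of the pair only 0, with total-count scaling 0, with limma on TPM 0, with *bves* KO-EX replicate 2 as the only exercised library 0 (chosen after seeing the data, with its spread taken from the other groups), and 0 to 3 with 1 library left out. Leaving out a library changes both the data and the spread, and the cause was not tested. Total-count scaling moved the median of all genes by 0.11 in both comparisons with *bves* KO-EX.

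For same-numbered libraries the correlations of their deviations were -0.0135, 0.123 and 0.156 between *bves* KO and WT. Between *bves* KO-EX and *bves* KO they were -0.0361, -0.281 and -0.137. Pairs with different numbers were not set beside them, so these values cannot settle whether the numbers mark shared handling. With the replicate block 1, 0 and 1 genes of the set passed in the 3 comparisons. In *bves* KO-EX against WT the block ended both calls, of *rictorb* (adjusted p = 0.0728 in edgeR) and *deptor* (0.0502), and the gene that passed was *eif4ebp3l* (0.0240). It ended no other call of the set. Of 126 ratio differences under the alternatives 3 moved by over 1 SD, and 8 changed sign, in 3 of the ratio comparisons whose groups overlapped. Counts of 19 to 92 a library limit *rictorb*.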

Other observations

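For the genes of the set that passed in any comparison, the tested genes with the most similar profile over the 9 libraries were looked up. The measure was the root mean square difference of centred log2 CPM. Genes without a symbol, or with one that starts with a capital or holds a colon, were passed over, so nearer genes of those kinds may be missing. The genes found are a description, with no test, over libraries that share groups. For *deptor*, whose own profile had a root mean square of 0.600, the nearest were *arhgap12a* (difference 0.196), *pdgfd* (0.209) and *abca1a* (0.220). The *pdgfd* gene encodes a platelet-derived growth factor and *abca1a* a cholesterol exporter, and *abca1a* had group means of 14.0, 29.0 and 25.5 CPM in WT, *bves* KO and *bves* KO-EX. The means of *arhgap12a* were 2.42, 4.96 and 4.26 CPM, and those of *pdgfd* 1.51, 3.28 and 3.21 CPM. All 3 nearest profiles had higher means in *bves* KO and in the libraries labelled *bves* KO-EX than in WT, which comes from their choice by likeness to *deptor*.

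For *rictorb*, with a root mean square of 0.519, the nearest were *rev1* (difference 0.177), *sept15* (0.181) and *rbm10* (0.185). The translesion polymerase gene *rev1* had group means of 2.87, 3.14 and 6.53 CPM in WT, *bves* KO and *bves* KO-EX. The RNA-binding protein gene *rbm10* had 7.95, 8.54 and 13.9 CPM, and *sept15*, annotated with that symbol, had 15.9, 17.1 and 32.7 CPM. In each of them the mean of the libraries labelled *bves* KO-EX was the highest, which comes from their choice by likeness to *rictorb*.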
